A study of Mus musculus with 4 samples.

Results

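The genes described here make fatty acids and join them to glycerol in mouse liver. They are 35 genes chosen by symbol: 3 regulators of lipogenesis, 6 genes from acetyl-CoA supply to palmitate, 5 desaturases, 6 elongases, 3 acyl-CoA synthetases, 4 acyltransferases up to phosphatidate, 3 lipins and 5 genes of diacylglycerol and triglyceride synthesis. Every probe set annotated with exactly 1 of these symbols was taken, which gave 81 probe sets out of 45037, and the array named 18194 genes in this way. Liver RNA of C57BL/6J mice was hybridised to Affymetrix expression arrays, which read each transcript with several probes combined into a probe set. There were 4 arrays: 2 from mice 48 h after a sham operation and 2 from mice 48 h after partial hepatectomy, the removal of part of the liver, after which the remnant regrows. The design text calls the arrays of a group biological duplicates. The labels call the tissue mature liver. They give neither age, sex nor feeding, and leave unsaid whether RNA was pooled from several animals, so every p-value here reflects array-to-array spread only.

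In the liver, carbon from sugar leaves the mitochondrion as citrate and is cut to acetyl-CoA, which acetyl-CoA carboxylase and fatty acid synthase turn into palmitate with NADPH as reductant. Desaturases and elongases remodel the product, acyl-CoA synthetases activate it, and the acyltransferases, lipins and diacylglycerol acyltransferases build triglyceride from it and glycerol 3-phosphate. Insulin acts on this pathway through the transcription factor SREBP-1c, encoded by Srebf1, and glucose through ChREBP, encoded by Mlxipl. After partial hepatectomy the liver remnant is known to store fat for a time while hepatocytes enter the cell cycle.

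The values are the authors' signals on a linear scale, with every array scaled to a trimmed mean of 500.003, and only differences within a probe set are compared. A difference is the hepatectomy mean minus the sham mean of log2(signal + 8.57), given with its standard error (SE) from limma, and a gene was called lower or higher at a Benjamini-Hochberg adjusted p under 0.05 over all 27022 probe sets tested. Each gene was represented by its tested probe set with the highest mean. The hepatocyte markers listed as a check, among them Alb and Apoa1, had a summed signal of 146932 and 126245 in the sham group and 139054 and 131065 after hepatectomy. Hepatectomy replicate 1 stood apart. Markers of adrenal gland summed to 1041 and 699 in the sham group, 20968 on hepatectomy replicate 1 and 1396 on replicate 2, and 12 of the 13 adrenal genes with a probe set were highest on replicate 1. Adipocyte markers summed to 2971 and 3893 in the sham group, 10436 on hepatectomy replicate 1 and 5399 on replicate 2. Of the 12 adipocyte genes with a probe set, 9 were highest on replicate 1. Adipoq, the fat cell hormone adiponectin, read 4.02 and 6.29 in the sham group, 574 on hepatectomy replicate 1 and 56.3 on replicate 2. Of the 10 adipocyte markers tested Fabp4 was called higher, at 1072 and 1264 against 4391 and 2592 (1.53 ± 0.25, adjusted p = 0.0157). Cidec read 130 and 39.3 against 1406 and 184 without being called (adjusted p = 0.156). Lipe, at 237 and 214 against 216 and 224, and Pparg, at 361 and 298 against 363 and 242, differed little. They were the 2 with negative differences. All 13 adrenal and all 12 adipocyte genes with a probe set lay over 20.4, the highest signal of the bacterial control probe sets, on hepatectomy replicate 1. On the other 3 arrays 5 to 6 adrenal and 7 to 9 adipocyte genes did. Fat cells are known to run this pathway too, so the values without hepatectomy replicate 1 are given beside the counts. Replicate 2 was above sham for Adipoq and Fabp4 as well, and without replicate 1 Fabp4 was still 1.15 higher. Leaving out replicate 1 therefore does not remove all adipocyte marker signal. A group left with 1 array is assumed to vary like the other group, so an adjusted p from such a fit rests on that assumption.

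Of the 34 genes tested, 7 were lower after hepatectomy and none was higher, while 27 did not pass. The 7 were the regulators Srebf1, Mlxipl and Thrsp, the enzymes Acss2, Me1 and Acacb, and the lipin Lpin1. The share of these genes called lower was 20.6%, while over all 12560 genes tested 1.09% were called lower and 3.57% higher. The genes were chosen with earlier results of these data known, so the contrast of these shares is not an independent test. At an unadjusted p under 0.05 by limma, 16 of the 34 differed, 13 with lower and 3 with higher values after hepatectomy. At that threshold 2502 of all 12560 genes differed. The median difference was -0.20, beside 0.02 over all genes, and 23 of 34 differences were negative (67.6%, against 47.1% over all genes). The size depended on the choice of probe set: with the probe sets of each gene averaged the median was -0.34, beside 0.03 over all genes. Both arrays of one group lay beyond both arrays of the other for 26 of the 34 genes (76.5%), against 51.3% of all genes. Sham was above in 19 of these 26 and hepatectomy in 7, beside 2912 and 3532 of all 12560 genes. Mogat2 was too dim to be tested, with signals of 26.9 and 17.0 in the sham group and 38.9 and 20.5 after hepatectomy. Without hepatectomy replicate 1 the same 7 genes were called lower and Elovl1 was called higher. Without sham replicate 1 the lower calls of Acacb, Me1, Mlxipl and Thrsp were lost, leaving 3. Without sham replicate 2 those of Me1, Mlxipl, Srebf1 and Thrsp were lost, and Scd1 was called lower in addition. Lpin1 and Acss2 were called whichever array was left out. Lower transcript per liver cell and fewer cells of the type that makes it cannot be told apart in whole liver RNA.

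**Figure D1:**
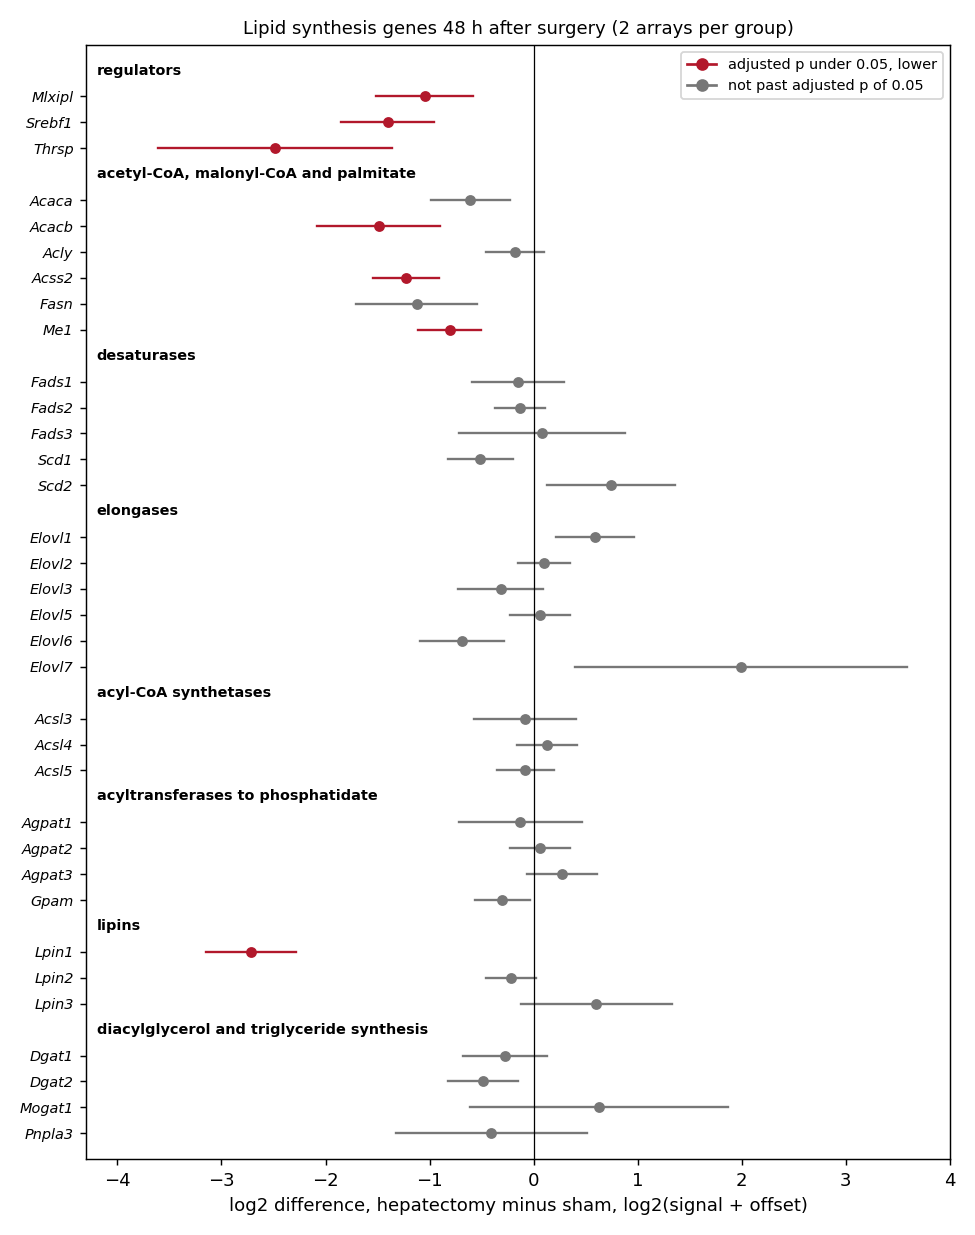
The log2 difference of each tested gene, hepatectomy minus sham, is plotted by role, with bars for the unadjusted 95% confidence interval (2 arrays per group). The 7 red genes passed an adjusted p of 0.05, all on the lower side, from Lpin1 at -2.72 to Me1 at -0.81; several grey intervals also leave out 0 but did not pass the adjustment over all probe sets.

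All 3 regulators were lower. Srebf1 read 4950 and 5747 in the sham group and 1661 and 2434 after hepatectomy, so the groups did not overlap. Its difference was -1.40 ± 0.20 (SE), called lower (adjusted p = 0.00868), and the value without sham replicate 2 was -1.30 (adjusted p = 0.0588). Its probe set reads the gene as a whole as far as the annotation says, so the SREBP-1a and SREBP-1c transcripts are not separated. Mlxipl read 4509 and 5250 in the sham group against 1909 and 2888 after hepatectomy. It fell by 1.05 ± 0.20 (adjusted p = 0.0332); the value was -1.16 without sham replicate 1 and -0.94 without sham replicate 2, and neither passed (adjusted p = 0.108 and 0.166). With probe sets averaged for every gene its adjusted p was 0.0505.

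Thrsp, a small lipogenic protein induced by thyroid hormone and carbohydrate, read 13823 and 11788 in the sham group. It read 1174 on hepatectomy replicate 1 and 4363 on replicate 2, both far under the sham arrays and far apart from each other. The fall was 2.49 ± 0.49 (adjusted p = 0.0342). The other tested probe sets of Thrsp were called lower too, with falls of 3.84 ± 0.52 and 3.44 ± 0.50. The difference of the probe set with the highest mean was -1.55 without hepatectomy replicate 1 and -3.43 without replicate 2. It was not called with robust eBayes (adjusted p = 0.378), nor without sham replicate 1 (0.168) or sham replicate 2 (0.11). Thrsp was lowest on the array that carried the most adipocyte marker signal. The part of fat tissue in its values was not tested.

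The promoters of Lpin1, Thrsp and Mlxipl are shown because these genes had the largest falls or hold a match to the site that SREBP proteins are known to bind. Each is the 250 bases upstream of an annotated start in RefSeq (GRCm38.p6), read 5′ to 3′ on the gene's strand, with motif matches in capitals. The motifs searched on both strands were TCACNCCAC for SREBP, CACGTG for E-boxes and CCAAT for NF-Y, and none of them overlap in the windows shown. The Lpin1 window (chr12:16610967-16611216, minus strand) holds none. That of Thrsp (chr7:97417551-97417800, minus strand) holds the NF-Y letters at 79 and 52 bases before the start. Of the Mlxipl windows, the one shown (chr5:135106641-135106890, plus strand) holds the SREBP letters 136 bases before the start.
Lpin1: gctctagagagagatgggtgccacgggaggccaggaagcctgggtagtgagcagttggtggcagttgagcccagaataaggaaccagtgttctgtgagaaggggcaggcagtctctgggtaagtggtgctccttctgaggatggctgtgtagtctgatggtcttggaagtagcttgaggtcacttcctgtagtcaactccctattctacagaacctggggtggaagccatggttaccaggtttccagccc
Thrsp: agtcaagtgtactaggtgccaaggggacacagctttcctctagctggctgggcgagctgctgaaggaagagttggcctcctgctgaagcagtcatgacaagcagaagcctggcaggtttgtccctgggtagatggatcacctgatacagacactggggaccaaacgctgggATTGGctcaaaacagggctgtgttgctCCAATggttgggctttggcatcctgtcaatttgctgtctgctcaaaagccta
Mlxipl: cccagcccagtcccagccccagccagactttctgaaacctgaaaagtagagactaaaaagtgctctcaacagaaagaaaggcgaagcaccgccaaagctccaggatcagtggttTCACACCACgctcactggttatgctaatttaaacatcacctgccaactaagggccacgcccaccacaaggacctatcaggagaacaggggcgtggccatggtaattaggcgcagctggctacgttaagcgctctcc
Windows were found for 28 of the 35 genes, 39 in all. The NF-Y letters stood in 17 of these 39 windows (43.6%), against 33.8% of all 32851 windows. Counted by gene, 16 of the 28 had these letters in a window, some genes having several windows. The E-box stood in windows of Elovl5, Lpin2 and Mlxipl (7.69% of windows against 6.02%), and the SREBP letters in that of Mlxipl alone (2.56% against 1.05%). A match describes the letters only.

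From acetyl-CoA supply to palmitate, all 6 genes had both hepatectomy arrays under both sham arrays, and 3 of the 6 passed. Acss2, which makes acetyl-CoA from acetate in the cytosol, read 6789 and 5879 in the sham group and 2831 and 2557 after hepatectomy. It fell by 1.23 ± 0.14 (adjusted p = 0.00316), and a further probe set fell by 1.53 ± 0.21. A dimmer Acss2 probe set, with signals of 236 and 305 against 342 and 664, differed the other way by 0.81 ± 0.33 without passing (adjusted p = 0.272), and the mean of all 3 was not called (-0.65, adjusted p = 0.0769). Me1, the cytosolic malic enzyme that supplies NADPH, read 4261 and 4028 against 2330 and 2395. The arrays of each group lay close together, and Me1 fell by 0.81 ± 0.13 (adjusted p = 0.017). The call of Me1 was lost when either sham array was left out (adjusted p = 0.138 and 0.0824) and with the mean of its probe sets (adjusted p = 0.0887).

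The carboxylases make malonyl-CoA, Acaca in the cytosol for synthesis and Acacb at the mitochondrial surface, where malonyl-CoA restrains the uptake of fatty acids for oxidation. Acacb read 3732 and 2125 in the sham group and 933 and 1068 after hepatectomy. It fell by 1.49 ± 0.26 (adjusted p = 0.0203), with its sham arrays wide apart, and the value without sham replicate 1 was -1.08 (adjusted p = 0.115). Acaca read 1648 and 1507 against 992 and 1073, a difference of -0.61 ± 0.17 that did not pass (adjusted p = 0.103). Fasn, the fatty acid synthase itself, read 4774 and 5961 in the sham group and 1836 and 3251 after hepatectomy. Its difference of -1.12 ± 0.25 missed the threshold (adjusted p = 0.0569). It was -1.53 without hepatectomy replicate 2 and -0.71 without replicate 1. Fasn passed with a filter at the 50th percentile (adjusted p = 0.0468) and after median centring (-1.21, adjusted p = 0.0288). Acly, which cuts citrate to acetyl-CoA, read 9947 and 9213 against 9180 and 7811, close together in comparison with the other 5. Its difference was -0.18 ± 0.12 (adjusted p = 0.533, 95% interval -0.46 to 0.10). The other tested Acly probe sets were dimmer and had larger falls that did not pass. They differed by -0.32 ± 0.14 (adjusted p = 0.288), -0.56 ± 0.23 (adjusted p = 0.267) and -0.38 ± 0.40 (adjusted p = 0.713).

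**Figure D2:**
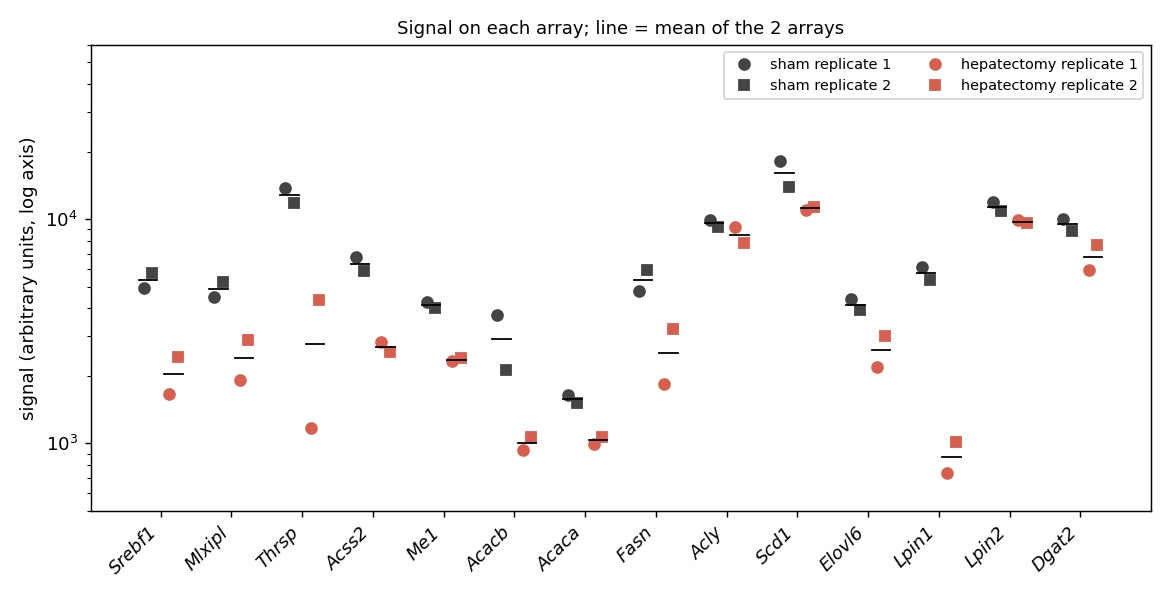
The signal of 14 of the genes is shown on each array, on a log axis, with circles for replicate 1, squares for replicate 2 and a line at the mean of a group. The genes drawn are all among the 19 of 34 with both hepatectomy arrays under both sham arrays. Genes whose groups overlapped or that lay higher after hepatectomy are left out. The groups lie widest apart for Lpin1 and Thrsp, and the hepatectomy arrays of Thrsp (1174 and 4363) are far apart.

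Of the 5 desaturases none passed in the probe set with the highest mean, and the probe sets of Scd1 disagreed in size. Scd1 encodes the main liver enzyme that turns stearate into oleate. Its brighter probe set read 18186 and 13943 in the sham group and 10952 and 11360 after hepatectomy, a difference of -0.51 ± 0.13 (adjusted p = 0.0928). The other Scd1 probe set read 3224 and 2168 against 353 and 297, a difference of -3.00 ± 0.23 that was called lower (adjusted p = 0.000722). Both have the groups apart in the same direction, and the mean of the pair was called (-1.76, adjusted p = 0.00555). Scd2, the form prominent in brain and in developing tissue, lay the other way. It read 336 and 408 in the sham group, 785 on hepatectomy replicate 1 and 497 on replicate 2. Its difference was 0.74 ± 0.27 (adjusted p = 0.208). It was 0.42 with replicate 1 left out (adjusted p = 0.493) and 1.07 and called without replicate 2 (adjusted p = 0.0271). Scd2 was thus highest on the array with adrenal and adipocyte signal, and the part of those tissues in its value was not tested.

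No front-end desaturase of polyunsaturated fatty acids was called. Fads2, which starts the conversion of the essential fatty acids, read 9024 and 8729 against 7923 and 8287, with a difference of -0.13 ± 0.11 (95% interval -0.38 to 0.11). Fads1, which acts after it, read 7331 and 6305 against 4989 and 7513, with overlapping groups and a difference of -0.15 ± 0.19 (95% interval -0.59 to 0.29). The sign of that difference depended on hepatectomy replicate 1. A dimmer Fads1 probe set read 401 and 350 against 129 and 221, without overlap, and differed by -1.11 ± 0.30 (adjusted p = 0.101). Fads3 read 188 and 192 against 285 and 142, and its difference of 0.08 ± 0.34 changed sign under median centring, quantile normalization and the mean of its probe sets.

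**Figure D3:**
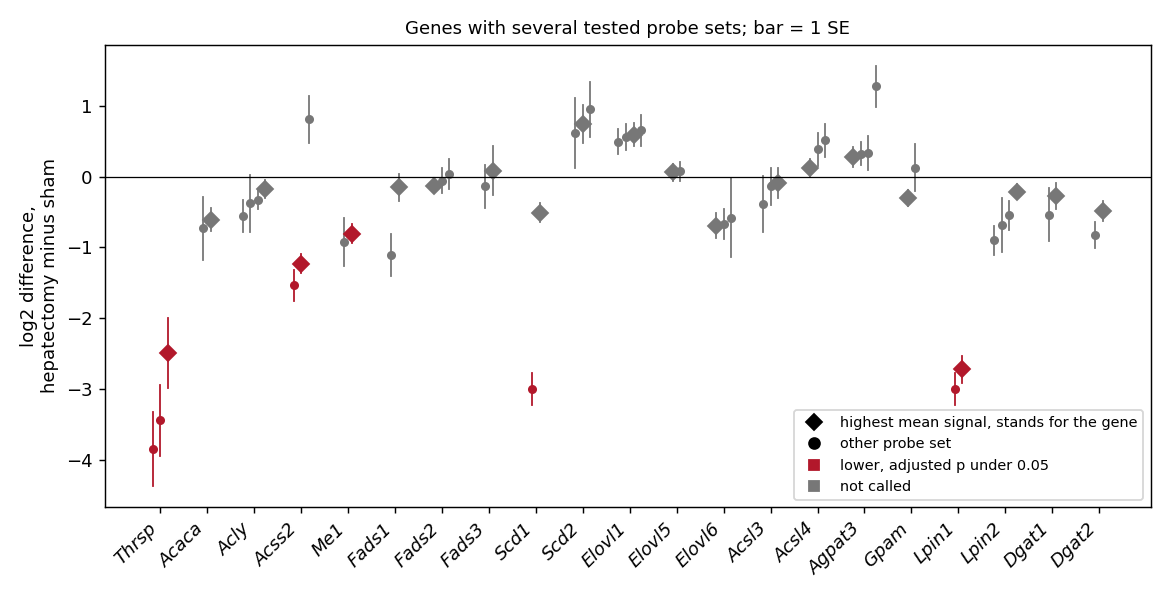
The log2 difference of every tested probe set is drawn for the 21 genes with more than 1, with bars of 1 SE, diamonds for the probe set that stands for the gene and red for those called lower. The probe sets of Scd1 stand at -3.00 and -0.51, those of Thrsp and Lpin1 are all called lower, and 1 probe set of Acss2 lies on the other side of 0 from the rest.

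Among 70 tested probe sets of these genes 12 were called, all lower, beside 3.39% of all probe sets called in either direction. In 17 of the 21 genes with several tested probe sets, all of them had the same sign. The 4 others were Acss2, Fads2, Fads3 and Gpam.

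None of the 6 elongases passed, and they did not share a direction. Elovl6, which extends palmitate to stearate and is a known SREBP-1c target, read 4386 and 3936 in the sham group and 2200 and 3003 after hepatectomy. Its difference was -0.69 ± 0.17 (adjusted p = 0.0829), and it was called without hepatectomy replicate 2 (-0.91, adjusted p = 0.00943). Elovl1, which makes very long saturated chains, read 2472 and 2891 against 3602 and 4524. Its difference was 0.59 ± 0.16 (adjusted p = 0.105), called as higher without hepatectomy replicate 1 (0.76, adjusted p = 0.0455), and all 4 of its probe sets lay between 0.49 and 0.65. Elovl5 and Elovl2, the elongases of polyunsaturated chains, stood close to sham. Elovl5 read 12214 and 10278 against 12441 and 10966, a difference of 0.06 ± 0.12 (95% interval -0.23 to 0.35) that turned to -0.03 under median centring. Elovl2 read 7519 and 7328 against 8224 and 7678, a difference of 0.10 ± 0.11 (95% interval -0.15 to 0.35). Elovl3, known for its daily rhythm in liver, read 1583 and 1871 against 1513 and 1261 and differed by -0.32 ± 0.18 (adjusted p = 0.432).

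Elovl7, an elongase of long saturated chains, was dim and turned on 1 array. Its tested probe set read 3.96 and 30.5 in the sham group, 149 on hepatectomy replicate 1 and 40.9 on replicate 2. The difference was 2.00 ± 0.69 (adjusted p = 0.194). With hepatectomy replicate 1 left out it was 1.16 (adjusted p = 0.445). Its other 5 probe sets were too dim to be tested, and each was highest on hepatectomy replicate 1, from 34.2 to 81.5. The part of adrenal and fat tissue in these values was not tested.

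The 3 acyl-CoA synthetases, which activate fatty acids for use, gave no call. Acsl5, of the mitochondrial and endoplasmic reticulum membranes, read 9607 and 8308 against 8180 and 8719, with overlapping groups and a difference of -0.08 ± 0.12 (95% interval -0.35 to 0.19). Acsl4, which prefers arachidonate, read 3819 and 3989 against 4319 and 4210, a difference of 0.13 ± 0.12 (95% interval -0.16 to 0.41). Acsl3, found on nascent lipid droplets, read 1101 and 1235 against 915 and 1318 and differed by -0.09 ± 0.21, with a sign that turned without hepatectomy replicate 1.

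The 4 acyltransferases that lead from glycerol 3-phosphate to phosphatidate gave no call either. Gpam, the mitochondrial enzyme of the committed step, read 7056 and 6697 in the sham group and 5489 and 5670 after hepatectomy, a difference of -0.30 ± 0.11 (adjusted p = 0.235; 95% interval -0.56 to -0.04). Agpat2, the main liver form of the next step, read 4845 and 4511 against 5070 and 4686. The groups overlapped, and the difference was 0.06 ± 0.12 (95% interval -0.23 to 0.35), turning to -0.03 under median centring. Agpat1 differed by -0.13 ± 0.26, a sign that turned without hepatectomy replicate 2. Agpat3, which acts on polyunsaturated chains, read 2180 and 2025 against 2649 and 2444 and differed by 0.27 ± 0.14 (adjusted p = 0.402). A further Agpat3 probe set read 1243 and 1212 against 2094 and 4234, a difference of 1.27 ± 0.29 that missed the threshold (adjusted p = 0.0599).

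The lipins turn phosphatidate into diacylglycerol, and the 3 forms differed in their values. Lpin1 read 6134 and 5359 in the sham group and 735 and 1013 after hepatectomy, a mean of 5746 ± 548 against 874 ± 196 (SD, 2 arrays each). It fell by 2.72 ± 0.19 (SE; adjusted p = 0.000657), a sham level 6.59 times the hepatectomy level on this scale, and this was the largest fall of any probe set that stood for a gene here. The other Lpin1 probe set read 4869 and 3424 against 434 and 589 and fell by 2.99 ± 0.23 (adjusted p = 0.000722). Lpin2, the other lipin abundant in liver, read 11871 and 10831 against 9893 and 9629, a difference of -0.22 ± 0.11 (95% interval -0.46 to 0.03). The 95% interval of this Lpin2 probe set, its brightest, and that of Lpin1 (-3.15 to -2.29) do not meet, but the difference between the 2 genes was not itself tested. The dimmer Lpin2 probe sets had larger falls that did not pass. One read 1161 and 1444 against 764 and 624 and differed by -0.90 ± 0.20 (adjusted p = 0.0554). The others differed by -0.55 ± 0.21 (adjusted p = 0.236) and -0.69 ± 0.38 (adjusted p = 0.428). Lpin3 was dim, with 55.7 and 58.0 against 86.4 and 95.3, and differed by 0.60 ± 0.32 (adjusted p = 0.398).

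At the last steps no gene was called. Dgat2, which esterifies newly made fatty acids into triglyceride, read 10040 and 8899 in the sham group and 5931 and 7672 after hepatectomy. Its probe sets differed by -0.49 ± 0.15 (adjusted p = 0.139) and -0.83 ± 0.19 (adjusted p = 0.0587), with the groups apart in both. Dgat2 was called without hepatectomy replicate 2 (-0.67, adjusted p = 0.033). Dgat1, the other acyltransferase of this step, read 1296 and 1128 against 1054 and 945, a difference of -0.27 ± 0.18 (95% interval -0.68 to 0.13). Mogat1, which acylates monoacylglycerol, read 164 and 42.2 against 114 and 162, so its sham arrays lay further apart than the groups. Pnpla3, a lipid droplet protein controlled by SREBP-1c, was dim, with 46.0 and 31.4 against 25.4 and 28.1, and differed by -0.40 ± 0.40 (adjusted p = 0.69).

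Beside these genes, 88 others of the same metabolism had been listed, of which 80 had a probe set and 73 were tested. Of the 73, 1 was called lower and 4 higher, which is 1.37% and 5.48% beside 1.09% and 3.57% of all genes, and their median difference was 0.01. None of 14 genes of upstream control passed. Among them Ppargc1b, a coactivator of SREBP, read 389 and 436 against 153 and 213 (-1.15 ± 0.26, adjusted p = 0.0551). Insig2, which holds SREBP in the endoplasmic reticulum, read 3164 and 2913 against 7842 and 4270 (0.93 ± 0.25, adjusted p = 0.102). The brighter Insig1 lay the other way, at 12780 and 12161 against 10489 and 10533 (-0.25 ± 0.10, adjusted p = 0.266). Mid1ip1, the partner of Thrsp, read 3711 and 3771 against 1317 and 2885 (-0.94 ± 0.31, adjusted p = 0.176). The choice to name these genes followed a look at their values. The lower gene was Pklr, the liver pyruvate kinase, at 7786 and 6318 against 2866 and 3646. Its fall was 1.12 ± 0.16 (adjusted p = 0.0111), lost without sham replicate 1 (adjusted p = 0.0766). None of the 12 other tested genes of elongation, desaturation and mitochondrial fatty acid synthesis was called, nor were the 6 other acyl-CoA synthetases.

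The 4 higher genes belong to glycerolipid and phospholipid synthesis. Gpat3, a glycerol phosphate acyltransferase of the endoplasmic reticulum that fat cells also express, read 1671 and 954 in the sham group, 4847 on hepatectomy replicate 1 and 2939 on replicate 2. It rose by 1.57 ± 0.30 (adjusted p = 0.0325) and, without hepatectomy replicate 1, by 1.21 (adjusted p = 0.035). With sham replicate 2 left out the value was 1.17 and not called (adjusted p = 0.128), nor was the gene called with robust eBayes (adjusted p = 0.0973). Plpp1 and Plpp2 are membrane lipid phosphatases that also accept phosphatidate. Plpp1 read 1813 and 1951 against 3385 and 3246 and rose by 0.82 ± 0.14 (adjusted p = 0.0203), though not past the threshold after median centring (adjusted p = 0.0887). Plpp2 read 1201 and 1052 against 2694 and 2036 and rose by 1.05 ± 0.19 (adjusted p = 0.0235). Both lost their calls without either sham array (adjusted p from 0.0825 to 0.144). Chka, the choline kinase that opens phosphatidylcholine synthesis, read 369 and 398 against 1157 and 751. It rose by 1.26 ± 0.25 (adjusted p = 0.0334), and without hepatectomy replicate 1 its value was 0.96 (adjusted p = 0.0584); it was not called without either sham array (adjusted p = 0.215 and 0.14). Of 14 other glycerolipid enzymes 3 rose (21.4%), and of 19 phospholipid genes 1 rose (5.26%), beside 3.57% of all genes.

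The hepatectomy arrays were set side by side against the sham mean to see how far each gene depended on 1 of them. The 7 genes called lower were under the sham mean on both arrays, which their selection as lower on these same arrays favours. Srebf1 stood at -1.68 on replicate 1 and -1.13 on replicate 2, Mlxipl at -1.35 and -0.75, and Lpin1 at -2.95 and -2.49. Thrsp stood at -3.43 and -1.55, and Fasn at -1.53 and -0.71. Acss2 (-1.16 and -1.30), Me1 (-0.83 and -0.79) and Acacb (-1.58 and -1.39) were alike on both. In all, 20 of the 34 genes were lower on replicate 1 than on replicate 2, and Scd2, Elovl7 and Fads3 were among those higher on replicate 1.

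**Figure D4:**
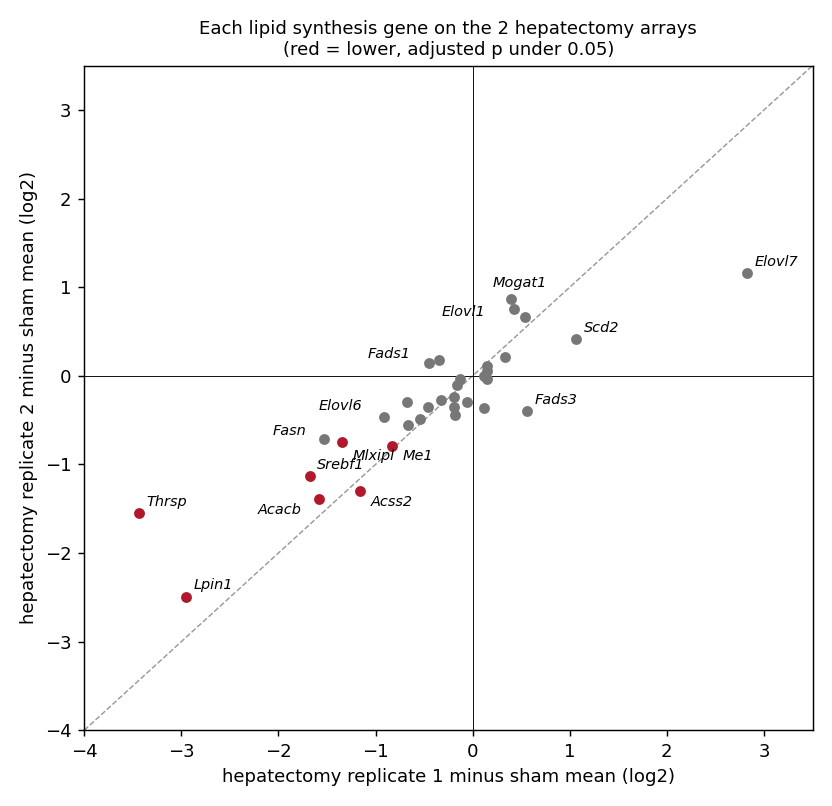
Each point is a gene, with its log2 distance from the sham mean on hepatectomy replicate 1 (x axis) and on replicate 2 (y axis); the dashed line marks equal distance and red marks the 7 genes called lower. Thrsp (-3.43 and -1.55) and Elovl7 (2.83 and 1.16) lie furthest from the line, while Acss2, Me1 and Acacb lie near it.

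**Figure D5:**
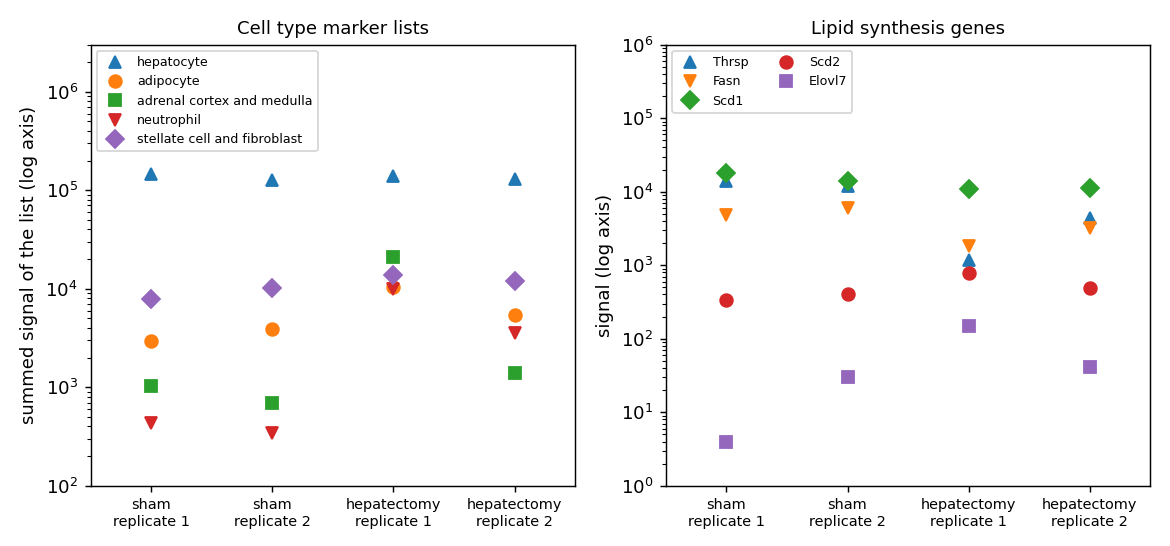
The left panel gives the summed signal of 5 cell type marker lists on each array and the right panel the signal of 5 lipid synthesis genes, both on log axes. Adrenal markers reach 20968 on hepatectomy replicate 1, where Scd2 (785) and Elovl7 (149) are highest and Thrsp (1174) and Fasn (1836) are lowest, while hepatocyte markers differ little between arrays.

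Some markers of other cell types also moved with the groups. Both tested neutrophil markers, S100a8 and S100a9, were called higher, and that list summed to 430 and 346 in the sham group against 9822 and 3521 after hepatectomy. That sum rests on these genes: Camp, Elane, Ltf, Mpo and Ngp read at most 21.0 on any array. Of 10 stellate cell and fibroblast markers 4 were called higher (Acta2, Col1a1, Col1a2 and Col3a1), with sums of 7821 and 10253 against 13766 and 11903. The other 6 were not called, and 4 of them had negative differences: Lrat (-0.75), Hand2 (-0.72), Reln (-0.46) and Dcn (-0.12). Of 10 Kupffer cell and macrophage markers Marco was called higher and Csf1r lower, with sums of 19386 and 20021 against 20638 and 19805. None of the 9 hepatocyte markers tested was called, and their differences lay between -0.13 and 0.12. The part of these cells in the values of the lipid genes was not tested.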

How the data were processed

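Total RNA of mouse liver was labelled with biotin and measured on 4 Affymetrix arrays. The deposited intensities are linear signals, 1 for each probe set of an array, from GCOS 1.4 (per the submitters' processing notes); no source used here states its settings, detection calls or the scan dates. Of 45101 probe sets 64 controls were left out; 34945 had 1 gene symbol in the platform annotation, 932 several and 9160 none. Signals were turned to log2 after adding 8.57, their 20th percentile, so that differences of dim genes are understated. Only the 27022 probe sets with a mean at or above the 40th percentile were tested. The test was two-sided, from limma 3.58.1 (lmFit, then eBayes with a mean-variance trend; R 4.3.3), with Benjamini-Hochberg adjustment over all of them (2 residual and 6.02 prior degrees of freedom). The code was tested on simulated data. All member genes are named; of the further genes of the pathway, those called, and others are marked where they appear. The members and lists were chosen with earlier results of these data known. The number of arrays limits the precision: the median SE of a member gene was 0.18. Offsets, filters, scalings, variance models, probe set rules, a replicate block and leaving out each array were tried. Sequences come from RefSeq promoter windows of GRCm38.p6.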

Additional observations from a re-analysis of the deposited data

How the results depend on the processing

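The main setting called 7 genes lower, and between 5 and 8 were called lower with offsets of 1 and 32, a filter at the 50th percentile, median centring, quantile normalization, robust eBayes, averaging over probe sets and the choice without _s_at, _x_at or _a_at probe sets. Averaging over probe sets kept 4 of the 7, losing Acss2 (adjusted p = 0.0769), Me1 (0.0887) and Mlxipl (0.0505), and added Scd1; robust eBayes lost Thrsp, the filter and median centring added Fasn, and quantile normalization added Scd1. Without the filter on dim probe sets 2 were lower (Lpin1 and Acss2), of 218 genes and 308 probe sets called over the whole array; 4 member probe sets and 0 genes of the further lists were called. Without a mean-variance trend 1 was lower (Lpin1), of 173 genes and 258 probe sets, with 3 member probe sets and 0 of the further genes. The main setting called 586 genes, 916 probe sets, 12 member probe sets and 5 further genes. By limma there, 24 of the 73 further genes tested had an unadjusted p under 0.05, beside 2502 of all 12560 genes. When probe sets were averaged 3 further genes were called. Leaving out 1 array at a time, 3 to 10 members were lower and 0 to 2 higher, 6 to 22 member probe sets and 1 to 10 further genes were called, and 234 to 1236 genes and 343 to 1995 probe sets over the whole array; a group of 1 array is then assumed to vary like the other group.

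Same-numbered arrays are not stated to be paired, and their deviations from the group means correlated at 0.10, which rests on 2 pairs. With the replicate block 1943 probe sets and 1189 genes were called, among them 10 members lower and 2 higher (Elovl1 and Elovl7), with Elovl6, Fasn and Scd1 as the added lower genes, 22 member probe sets and 8 further genes; all 7 lower calls of the main setting were kept.

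Of 508 values of member genes under 15 alternatives, 456 kept their direction and side of the threshold, 23 lost and 16 gained a call, and 13 changed sign, none of them in a called gene. Fads3 changed sign under median centring (-0.0057), quantile normalization (-0.018) and averaging over its probe sets (-0.028), and Agpat2 (-0.026) and Elovl5 (-0.026) under median centring. With 1 array left out at a time, Acsl3 ran from -0.35 to 0.17, Acsl5 from -0.19 to 0.024, Agpat1 from -0.37 to 0.11, Elovl5 from -0.064 to 0.18, Fads1 from -0.45 to 0.14, Fads3 from -0.40 to 0.56 and Mogat1 from -0.26 to 1.51. Signal near the bacterial controls limits Elovl7, Mogat2 and Pnpla3.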
